A study of Sus scrofa with 24 samples.

Results

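A fixed list of 44 genes of the cell division machinery, 22 of DNA replication and 22 of mitosis, was followed across 4 tissues of the pig. A gene was taken as found where the name or the symbol in the description of a probe in the scanner files was that of the gene, whatever the letter case. By this rule 31 of the 44 genes were found, 14 of replication and 17 of mitosis, among 11784 named genes, and they had 56 probes. Each gene was represented by its probe of the highest mean over all arrays. MCM4, MCM5, MCM7, TYMS, TK1, GINS1, CDT1, FEN1, CCNA2, BUB1B, MAD2L1, NDC80 and CENPA were not found by the rule. The probes of RRM1, POLA1 and KIF20A were too dim to be tested, which left 12 replication and 16 mitosis genes. Here the word members stands for these genes.

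The samples came from 6 crossbred pigs (Sus scrofa) weaned at 28 days and sampled at 10 weeks, on standard feed and with no treatment. Each animal, numbered 68, 69, 70, 71, 73 and 75, gave liver (Liver), spleen (Spleen), a piece of jejunum free of Peyer's patches (Jejunum) and a piece of jejunum with a Peyer's patch (Peyer), so that there were 6 samples a tissue and 24 single-colour arrays. All are whole tissue, in which a lower number of cells of a type and less RNA per cell cannot be told apart. A level of 0 is that of the 75th percentile of the signals on the array, levels are on a log2 scale, and differences are log2 differences of 2 tissue means, with the standard error (SE) of the fit.

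DNA replication begins with the loading of the MCM helicase onto origins by CDC6, and the helicase is switched on by CDC45 and the GINS complex. The clamp PCNA, loaded by the RFC complex, holds the polymerases on the DNA. The primase subunit PRIM1 and DNA polymerase alpha (POLA1) start each strand, and ribonucleotide reductase (RRM1, RRM2) supplies the nucleotides. Mitosis is driven by CDK1 with B-type cyclins and by the Aurora and Polo kinases, is held back by the checkpoint kinases BUB1 and TTK until the chromosomes are attached, and ends when CDC20 and UBE2C direct the destruction of the cyclins by the anaphase-promoting complex. In Peyer's patches the B cells of the follicles divide, in the jejunum the epithelial cells at the base of the crypts divide, in the spleen lymphocytes and some blood precursors divide, and most hepatocytes of a grown liver rest outside the cycle.

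The probes are DNA strands of 60 bases, and what a member shows depends on which probe stands for it. Of the 31 members found, 16 had over 1 probe. The probes below are shown for 3 reasons. CDC20 was spotted under 2 names with the same letters, so its 2 signals measure technical error, and capitals mark the letters the 2 probes share. KIF11 had 2 probes whose results differed in sign, with no shared stretch over 8 bases, and MKI67 had 3, of which the one that differed from the others is shown, so that for these 2 genes the result turns on the probe. RFC3 had the largest difference between Peyer and Jejunum among the members. Lower case marks letters not shared with another probe of the gene printed here. Where each probe lies in its transcript was not determined here.
CDC20, both probes (O13165 and A_72_P428644): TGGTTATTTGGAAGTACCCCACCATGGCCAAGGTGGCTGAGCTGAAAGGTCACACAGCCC
KIF11, probe used (O5659): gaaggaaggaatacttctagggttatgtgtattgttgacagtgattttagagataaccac
KIF11, other probe (A_72_P197867): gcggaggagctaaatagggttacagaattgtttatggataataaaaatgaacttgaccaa
MKI67, a probe not used (O7450): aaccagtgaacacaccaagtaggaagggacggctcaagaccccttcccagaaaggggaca
RFC3, probe used (O9508): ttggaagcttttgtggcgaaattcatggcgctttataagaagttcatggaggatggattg

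The 2 probes of CDC20 differed on the 24 arrays by -0.01 ± 0.21 (mean ± SD), from -0.52 to 0.68. A pair of identical CDC45 probes differed by -0.04 ± 0.07, from -0.16 to 0.12. This is the error of the spots alone.

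The markers of each tissue matched its label, with 1 exception among the arrays. The 9 hepatocyte markers averaged 8.35 ± 0.14 (SD, n = 6) in Liver, the 8 enterocyte markers 6.14 ± 0.18 in Jejunum, and the 9 B cell markers 0.43 ± 0.25 in Spleen. The Spleen arrays differed in other markers. Their hepatocyte markers ran from -5.06 in animal 70 to -0.62 in animal 68, all below the Liver levels. Their enterocyte markers were -2.37 in animal 73 and -4.87 to -3.76 in the others. In Peyer the B cell markers averaged 1.07 to 1.33 in 5 animals and -1.86 in animal 71, and the germinal centre B cell markers 2.04 to 2.38 in the 5 and -0.65 in animal 71. The enterocyte markers of that array averaged 6.18, within the Jejunum range of 5.92 to 6.39, against 4.4 to 5.03 on the other Peyer arrays. The counts and medians of the members and of the other gene lists in comparisons with Peyer are therefore given with and without this array, while levels and differences of single genes include it unless stated. Liver and Spleen were on one set of slides and Jejunum and Peyer on another, so that Peyer was compared with Jejunum and Spleen with Liver within slides, while in the other 4 comparisons the slide set and the tissue cannot be told apart. Before scaling, the 75th percentile of the signal lay between 275.4 and 2261.9; precision is limited by the 6 arrays a tissue.

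The members as a group had one order of tissues. Over the 12 replication members the mean level was -0.86 ± 0.56 (SD, n = 6) in Liver, -0.16 ± 0.3 in Jejunum, 0.66 ± 0.38 in Spleen and 1.19 ± 0.69 in Peyer. Over the 16 mitosis members it was -1.03 ± 0.8 in Liver, 0.31 ± 0.34 in Jejunum, 0.77 ± 0.45 in Spleen and 1.23 ± 0.59 in Peyer. Jejunum stood below Spleen in both sets, by more for replication than for mitosis. Taken singly, 10 of the 12 replication members and 13 of the 16 mitosis members had their highest mean in Peyer, and 10 and 15 their lowest in Liver. The members that were highest elsewhere were RFC5 and KIF11 (Liver), GINS2 and TOP2A (Spleen) and MKI67 (Jejunum), and those lowest elsewhere were RFC5 and PRIM1 (Jejunum) and KIF11 (Peyer). These means include the Peyer array of animal 71, and the counts were not repeated without it. By medians, which a single array moves less, Peyer was highest for RFC5 (-1.13, Liver -1.21), TOP2A (3.16, Spleen 3.06) and MKI67 (2.87, Jejunum 2.83). GINS2 stayed highest in Spleen (0.59, Peyer 0.47).

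**Figure D1:**
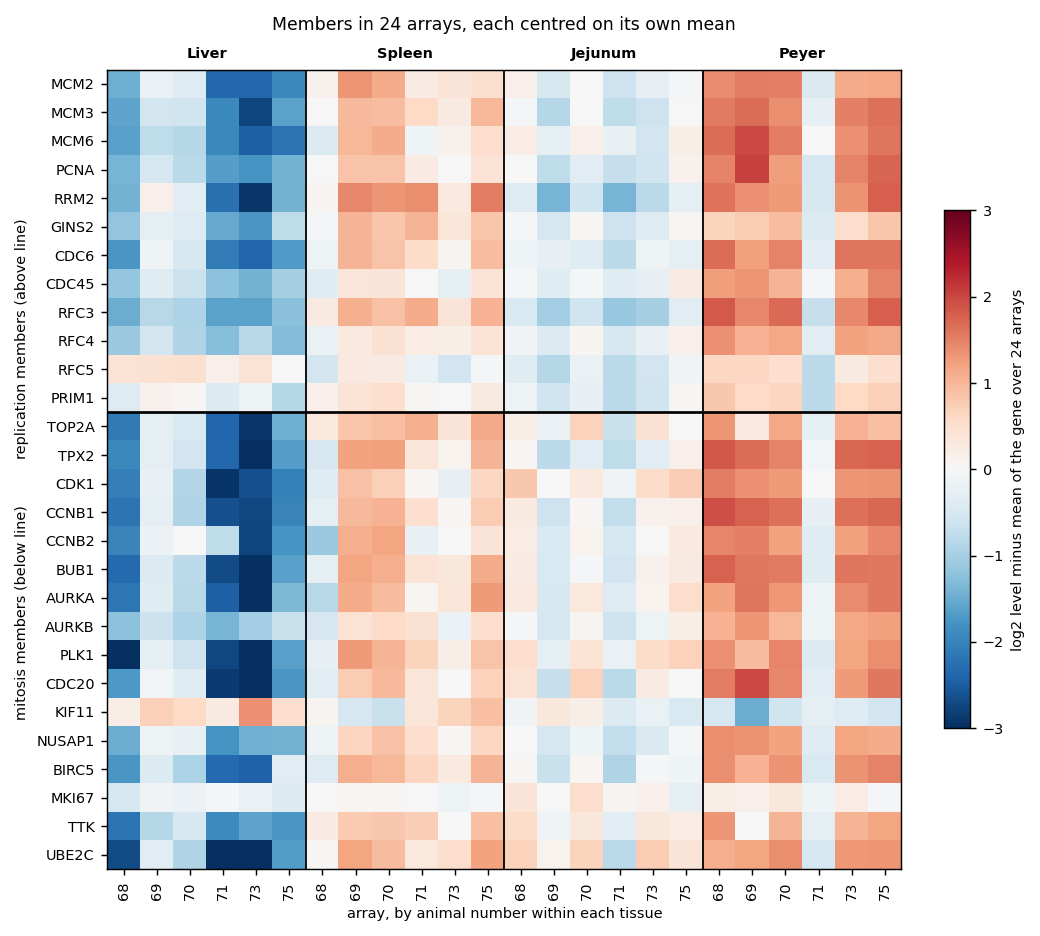
Level of each of the 28 tested members on each of the 24 arrays, in log2 minus the mean of the gene over the 24 arrays (colour), with replication members above the line and mitosis members below it and the animal number under each column. Most rows are blue in Liver and red in Spleen and Peyer, the Peyer column of animal 71 is pale, and the Liver columns of animals 69 and 70 are paler than the other 4.

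**Figure D2:**
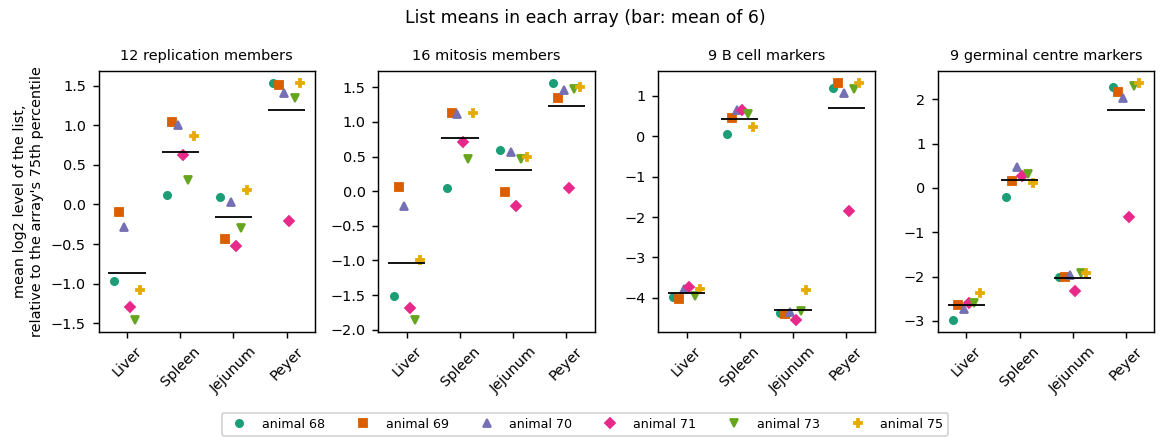
Mean log2 level of 4 gene lists on each array (vertical axis, relative to the 75th percentile of the array), by tissue, with a symbol for each animal and a bar at the mean of the 6 animals. In Peyer the array of animal 71 lies below the other 5 in all 4 lists, at -0.21 for replication members and -1.86 for B cell markers.

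The first comparison asked what the patch adds to the wall of the jejunum. With the patch present, 18 of the 28 members were higher and none was lower, where 6.18% of all 9965 tested genes were higher and 7.21% lower. A gene is called higher or lower at an adjusted p under 0.05 and a difference of at least 1 on the log2 scale, which is 2-fold. Called higher were 9 of the 12 replication members and 9 of the 16 mitosis members. The median difference was 1.36 for replication and 1.1 for mitosis members, against -0.11 over all genes.

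RFC3, a subunit of the loader that places the PCNA clamp on DNA, lay between 0.77 and 1.56 in Jejunum, with a median of 1.11. In Peyer its lowest level was 1.22, in animal 71, and the other 5 lay between 3.34 and 3.75. It was thus far above Jejunum in 5 animals and inside the Jejunum range in animal 71. The difference was 2.01 ± 0.31 (SE; limma, adjusted p = 6.8e-05), or 4.04-fold.

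RRM2, the regulated subunit of ribonucleotide reductase, lay between 0.3 and 1.41 in Jejunum, with a median of 0.99. Its Peyer levels were 1.21 in animal 71 and from 2.97 up to 3.47 elsewhere. The pattern was that of RFC3, and the difference was 1.97 ± 0.44 (limma, adjusted p = 0.0015).

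TPX2, which carries and activates Aurora A on the spindle, lay between 0.64 and 1.57 in Jejunum, with a median of 1.09, and in Peyer at 1.35 in animal 71 and at 2.91 to 3.28 in the others. Its difference of 1.74 ± 0.41 (limma, adjusted p = 0.0021) was the largest among the mitosis members. MCM3, a subunit of the helicase, lay between -2.22 and -1.37 in Jejunum, with a median of -1.69, and in Peyer at -1.59 in animal 71 and at 0.04 to 0.33 in the others, a difference of 1.65 ± 0.35 (limma, adjusted p = 0.00085). In each of these genes the array of animal 71 alone bridged the groups.

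By role, the 3 helicase subunits measured, MCM2, MCM3 and MCM6, were all higher in Peyer, by 1.26 to 1.65. Of the genes that load and switch on the helicase, CDC6 (1.55) and CDC45 (1.16) were higher, and GINS2 differed by 0.79 ± 0.26 without reaching 2-fold. The clamp PCNA was higher by 1.63 ± 0.32, or 3.09-fold, and RFC4 by 1.11, while the primase subunit PRIM1 (0.82) and RFC5 (0.77) passed the p threshold and not the 2-fold one.

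Among the mitotic kinases and their cyclins, CCNB1 (1.54), CCNB2 (1.14), AURKA (1.1) and AURKB (1.1) were higher. The calls of AURKA and CCNB2 were lost when animal 68, 69, 70, 73 or 75 was left out (limma, adjusted p from 0.056 to 0.11 and from 0.064 to 0.12) and with no filter on dim probes (0.051 and 0.055). AURKA was also not called on the median over its probes (0.72), nor CCNB2 with normexp (0.96), nor AURKB without animal 69 (0.96). CDK1 differed by 0.76 ± 0.37 (limma, adjusted p = 0.1) and PLK1 by 0.71 ± 0.43 (adjusted p = 0.19), and neither was called. Of the checkpoint and anaphase genes, BUB1 (1.35) and CDC20 (1.28) were higher, CDC20 not without animal 68, 69 or 75 (limma, adjusted p from 0.061 to 0.11), and TTK (0.54) and UBE2C (0.67, adjusted p = 0.21) were not called. The survivin gene BIRC5 (1.31) and NUSAP1 (1.29), a spindle protein, were higher, and TOP2A, which untangles the chromosomes, differed by 0.66 ± 0.38 (adjusted p = 0.16). UBE2C, TOP2A, CDK1 and TTK were higher in Peyer in 6 of 6 animals, and PLK1 in 5.

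No member had separate groups, where 5.33% of all genes were separate in the higher direction. The Peyer level of animal 71 lay within the Jejunum range for 27 members and, for PLK1, below it. Without that array 24 of the 28 members had every Peyer level above every Jejunum level, 12 of 12 for replication and 12 of 16 for mitosis, where 18.6% of all genes did. The count of called members was then 19, with PRIM1 (1.07) added, and the medians were 1.64 and 1.34. On the 3 slides that hold both tissues the median difference of the replication members was 1.64, 0.82 and 1.49, and that of the mitosis members 1.47, 0.62 and 1.18, the middle value in each case from the slide of animals 70 and 71. The replication median was larger than the mitosis median in 5 of the 6 animals.

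**Figure D3:**
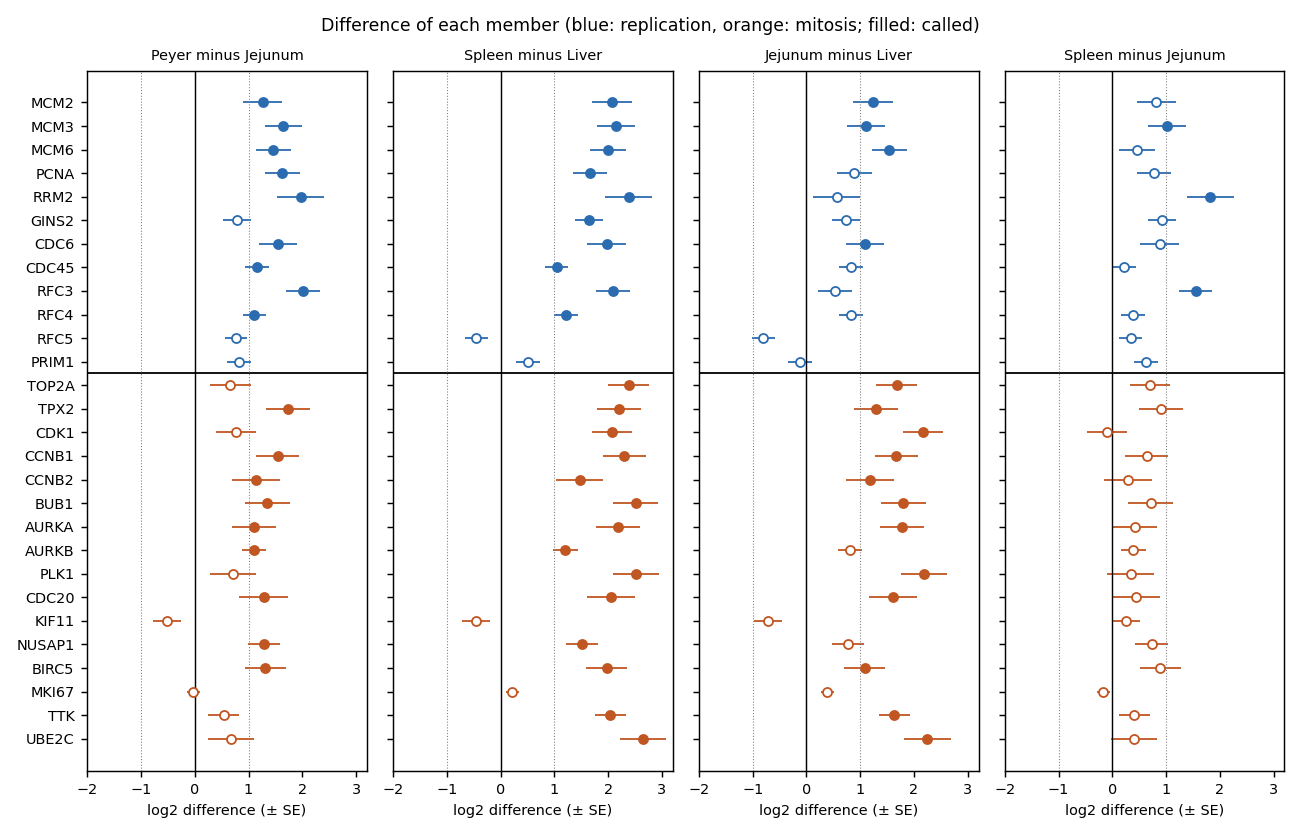
Difference in log2 level of each tested member in 4 comparisons, with bars for the SE of the fit, blue for replication and orange for mitosis, and filled points for members called at an adjusted p under 0.05 and a difference of at least 1. In Jejunum minus Liver 4 of the 12 blue and 12 of the 16 orange points are filled, and in Spleen minus Jejunum 3 blue and no orange points.

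The second comparison set the spleen, an organ of lymphocytes and blood, against the liver. In Spleen 24 of the 28 members were higher and none was lower, where 21.1% of all tested genes were higher and 18.2% lower. These were 10 of 12 replication and 14 of 16 mitosis members, with medians of 1.82 and 2.06 against 0.1 over all genes. In 14 of the 28, 7 of each set, every Spleen level was above every Liver level, where 28.2% of all genes were separate in this direction.

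UBE2C, the enzyme that attaches ubiquitin for the anaphase-promoting complex, lay in Liver between -0.68 and 2.06, with a median of 0.24, and in Spleen between 2.44 and 3.61, with a median of 3.14. The groups did not overlap, although the Liver of animal 69 at 2.06 and of animal 70 at 1.51 came within 1 unit of the lowest Spleen level. The difference of 2.65 ± 0.43 (limma, adjusted p = 8.4e-06), or 6.3-fold, was the largest among the members.

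PLK1, the Polo kinase of mitotic entry and exit, lay in Liver between -5.0 and -2.18, with a median of -4.08, and was well above background on 4 of the 6 Liver arrays. In Spleen it lay between -2.14 and -0.62, with a median of -1.15. The lowest Spleen level, in animal 68, was just above the highest Liver level, in animal 69. The difference was 2.52 ± 0.43 (limma, adjusted p = 1.9e-05).

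BUB1, a checkpoint kinase of the kinetochore, lay in Liver between -4.35 and -1.45, with a median of -3.01, and in Spleen between -1.31 and 0.14, with a median of -0.28, a difference of 2.51 ± 0.42 (limma, adjusted p = 1.4e-05). RRM2 lay in Liver between -1.23 and 1.84, with a median of 0.26, and in Spleen between 1.76 and 3.23, with a median of 3.05, a difference of 2.38 ± 0.44 (limma, adjusted p = 4.9e-05). BUB1 did not overlap, and RRM2 overlapped only through the Liver of animal 69, at 1.84, and the Spleen of animal 68, at 1.76.

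All 6 kinases and cyclins and all 4 checkpoint and anaphase genes were higher in Spleen, by 1.2 (AURKB) to 2.65 (UBE2C). The AURKB probes not used gave 2.61 and 2.24. TTK, at 2.04, was well above background on 2 of the 6 Liver arrays, and BUB1, CCNB2 and CDC20 on 5. TTK and CCNB2 were not called with normexp (0.62 and 0.85) or on the authors' deposited values (0.99 and 0.97). The 3 helicase subunits differed by 2.0 to 2.14, and GINS2, CDC6 and CDC45 by 1.65, 1.97 and 1.04. CDC45 fell short of 2-fold without animal 75 (0.98), under median scaling (0.93) and, before rounding, with normexp (1.0). The members that were not called were PRIM1 (0.51), RFC5 (-0.45), MKI67 (0.22) and KIF11 (-0.46), of which the last 2 depend on the probe, as described further on. On the 3 slides the median of the replication members was 1.38, 1.88 and 2.01 and that of the mitosis members 1.42, 2.27 and 2.64.

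The third comparison set the crypt-bearing jejunal wall without patches against the liver. Here the 2 sets of members parted. In Jejunum 12 of the 16 mitosis members but 4 of the 12 replication members were higher, 16 in all and none lower, where 17.5% of all tested genes were higher and 16.0% lower. The median difference was 1.62 for mitosis and 0.83 for replication members, against -0.01 over all genes. Without TOP2A and MKI67, which act in S phase or through the cycle, 11 of 14 mitosis members were called and the median was still 1.62. Of the 12 mitosis members called, BUB1, CCNB2, CDC20, PLK1 and TTK were not well above background on every Liver array and entered the test only through other tissues, whereas all 12 replication members were well above background throughout Liver. Among the remaining 11 mitosis members 7 were called, with a median of 1.3.

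The largest differences were all of mitotic genes. UBE2C lay in Jejunum between 1.59 and 3.16, with a median of 2.94, and was higher than in Liver by 2.25 ± 0.43 (limma, adjusted p = 8.7e-05). Its lowest Jejunum level, in animal 71, was below the highest Liver level, 2.06 in animal 69. PLK1 lay in Jejunum between -2.18 and -1.2, with a median of -1.44, and was higher by 2.19 ± 0.43 (limma, adjusted p = 0.00014), with the Jejunum and Liver of animal 69 both at -2.18 to 2 decimals. CDK1, the kinase of mitotic entry, lay in Liver between -1.63 and 1.11, with a median of -0.72, and in Jejunum between 1.21 and 2.13, with a median of 1.74. Its groups did not overlap, and the difference was 2.17 ± 0.37 (limma, adjusted p = 2.4e-05). BUB1 lay in Jejunum between -1.61 and -0.76, with a median of -0.98, and was higher by 1.8 ± 0.42 (limma, adjusted p = 0.00078), higher in 5 of 6 animals.

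All 4 checkpoint and anaphase genes (1.61 to 2.25) and 5 of the 6 kinases and cyclins were called, with AURKB at 0.81 ± 0.23 the exception. This exception rests on the probe used. The AURKB probes not used gave 2.03 and 1.9, and on the median over its probes AURKB was called (2.03, limma, adjusted p = 3.5e-05). BIRC5, CCNB2, CDC6, MCM3 and TPX2 each lost their call when animal 73 was left out (0.83, 0.87, 0.87, 0.91 and 1.02, the last at a limma adjusted p of 0.053). Without animal 68 BIRC5, CCNB2 and CDC6 lost it, and without animal 75 CCNB2. With normexp TTK (0.24), CCNB2 (0.48), MCM3 (0.52), CDC6 (0.83), CDC20 (0.86), MCM2 (0.86) and PLK1 (0.91) were not called. On the median over its probes CCNB2 was not called either (0.96). The replication members that were called were the 3 helicase subunits MCM6 (1.54), MCM2 (1.24) and MCM3 (1.11), and the helicase loader CDC6 (1.09). The call of CDC6 rests on the probe used. Its other probe gave -0.66, and the median over its probes 0.22 (limma, adjusted p = 0.37). None of the 5 members of the polymerase, clamp and clamp loader group was called. PCNA differed by 0.89, RFC4 by 0.83, RFC3 by 0.53 ± 0.31 (limma, adjusted p = 0.15), PRIM1 by -0.12 and RFC5 by -0.8, and RRM2 differed by 0.56 ± 0.44 (adjusted p = 0.28).

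The larger median of the mitosis set was seen in each animal. In the order 68, 69, 70, 71, 73 and 75, the median Jejunum minus Liver difference of the replication members was 1.14, -0.22, 0.4, 0.87, 1.27 and 1.32. That of the mitosis members was 2.25, -0.07, 0.97, 1.66, 2.8 and 1.83. The mitosis median was the larger in 6 of 6 animals, the replication minus mitosis gap running from -0.15 in animal 69 to -1.53 in animal 73. These medians include BUB1, CCNB2, CDC20, PLK1 and TTK, which were not well above background on every Liver array. They were not recomputed without these genes. In animal 69 both medians were below 0, and the members went both ways there, from -1.54 (RRM2) to 0.74 (TTK), with 2 of 12 replication and 6 of 16 mitosis members higher in Jejunum. The 6 members separate in the higher direction were MCM6, RFC4, AURKB, TTK, CDK1 and PLK1, and RFC5 was separate in the lower direction, where 24.1% and 24.7% of all genes were.

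This comparison rests on arrays of different slides. In the authors' deposited table, the mean of the intestinal arrays minus that of the Liver and Spleen arrays has an SD of 0.12 over 44600 probes, against 1.47 in the scanner values. With that difference mostly absent, any comparison between the slide sets largely follows from Peyer minus Jejunum and Spleen minus Liver. The deposited values are therefore no check of comparisons between slide sets. On those values 1 member was called in Jejunum minus Liver, the medians were 0.05 and 0.26, and the replication minus mitosis difference was -0.21 instead of -0.79. With normexp background correction of the scanner values 9 members were called, 1 of replication and 8 of mitosis, the medians were 0.59 and 0.97, and the difference was -0.38.

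The same Jejunum minus Liver differences can be stated as a place between Liver and Peyer, which is no second observation of the gap and rests on the same slides. The share of the Peyer minus Liver difference that a tissue reached was taken for the members higher in Peyer than in Liver. Jejunum reached a median of 41.6% for 10 replication members, from 20.9% (RFC3) to 51.4% (MCM6), and of 56.4% for 14 mitosis members, from 37.5% (NUSAP1) to 77.1% (UBE2C). RRM2 stood next to RFC3 at the low end, and TOP2A, CDK1, TTK and PLK1 lay between 71.8% and 75.4%. BUB1, CCNB2, CDC20, PLK1 and TTK were not well above background on every Liver array, so their shares are less certain. The medians were not recomputed without them. Spleen reached a median of 76.0% for replication and 74.7% for mitosis members. Without the Peyer array of animal 71 the medians in Jejunum were 37.4% and 50.9%, and in Spleen 68.4% and 68.0%. These are descriptions of these members with no test.

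**Figure D4:**
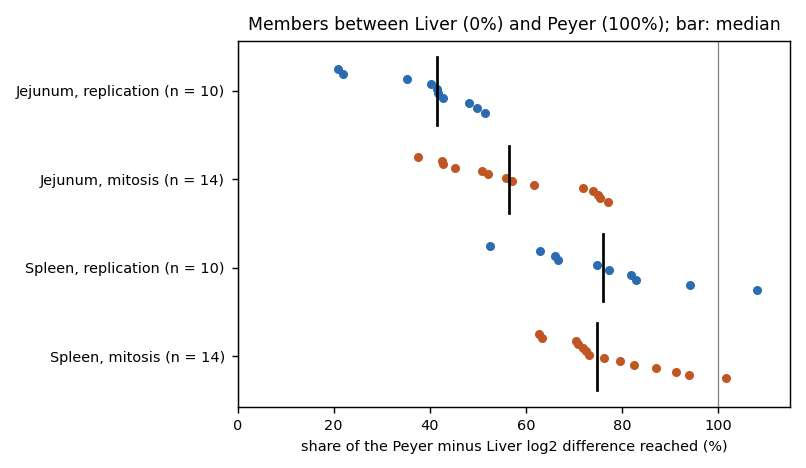
Place of each member between its mean level in Liver, at the left end of the scale, and in Peyer, at the right end, on the horizontal axis, for Jejunum and Spleen, with blue points for 10 replication and orange points for 14 mitosis members and a bar at the median. The medians in Jejunum are 41.6% and 56.4%, and in Spleen 76.0% and 74.7%.

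Between Spleen and Jejunum 3 of the 28 members were called, all of replication and all higher in Spleen, where 15.4% of all tested genes were higher and as many lower. RRM2 was higher by 1.82 ± 0.44 (limma, adjusted p = 0.0011), RFC3 by 1.55 ± 0.31 (adjusted p = 0.00018) and MCM3 by 1.02 ± 0.35 (adjusted p = 0.014). MCM3 lost its call with animal 69 (0.86) or animal 71 (0.95) left out, and under median scaling (0.94), quantile normalization (0.98) and normexp (0.87). The Spleen levels of all 3 genes were above every Jejunum level, a separation that 25.1% of all genes had. No mitosis member was called by limma, 3 had an unadjusted p under 0.05, and CDK1 was level between the tissues (-0.1 ± 0.37, higher in Spleen in 3 of 6 animals). The medians were 0.8 and 0.42, against 0.14 over all genes. The count was 7 without animal 68, whose Spleen had the lowest level of the 6 in 22 of the 28 members, and 23 on the authors' deposited values, which are no check here. The share of all genes called in those alternatives was not counted.

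Between Peyer and Spleen no member was called by limma, where 10.6% of all tested genes were higher in Peyer and 14.7% lower, and 13.3% of all genes were separate in the higher direction, as no member was. An unadjusted p under 0.05 was seen in 4 replication and 4 mitosis members. Of the 6 members with an adjusted p under 0.05, 5 were higher in Peyer (MCM6, CDC45, PCNA, RFC4 and AURKB) and KIF11 was lower. The median differences were 0.54 for replication and 0.6 for mitosis members. CDC45 differed by 0.94 ± 0.22 and MCM6 by 1.0 ± 0.33, the latter higher in 6 of 6 animals and just short of 2-fold before rounding. Without the Peyer array of animal 71, 8 members were higher in Peyer, MCM6, PCNA, CDC45, TPX2, CDK1, CCNB1, CCNB2 and CDC20, and the medians were 0.89 and 0.88. The same number was called with arrays scaled on their medians, which moved the median of all tested genes from -0.11 to 0.16. The share of all genes called in these alternatives was not counted.

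Between Peyer and Liver 24 members were higher and 1, KIF11 on the probe used, lower, where 19.4% and 21.2% of all tested genes were. The medians were 2.51 for replication and 2.63 for mitosis members. On the authors' deposited values, in which most of the difference between the slide sets is absent, they were 1.52 and 1.39, with 23 members higher. As given above, those values are no check of this comparison. Without the Peyer array of animal 71 the counts were again 24 and 1, and the medians 2.82 and 2.91. CCNB1, the cyclin that activates CDK1 at mitotic entry, differed most, from -0.71 ± 1.0 (SD, n = 6) in Liver to 2.49 ± 0.82 in Peyer, a difference of 3.21 ± 0.4 (SE), or 9.23-fold. MCM6 had the largest difference among replication members, 3.0 ± 0.33, or 7.99-fold. Separate groups were seen for 13 members in the higher and 1 in the lower direction, where 22.3% and 25.6% of all genes were separate.

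Other genes of the same processes, in a list apart from the members, were also uneven between the sets, in each comparison with Liver. Of 25 tested replication genes 1 was higher in Jejunum than in Liver and 1 was lower, with a median of 0.07, and of 34 tested mitosis genes 17 were higher and none lower, with a median of 1.02. Against Jejunum, Peyer was higher in 12 of the 25 replication genes and 8 of the 34 mitosis genes, with medians of 0.95 and 0.78. Without the Peyer array of animal 71 these counts were 14 and 17, and the medians 1.15 and 0.98. Against Liver, Spleen was higher in 13 of the 25 and 28 of the 34, with medians of 1.0 and 1.72. Peyer was higher than Liver in 13 and 28 too, with medians of 1.0 and 1.87. Without the Peyer array of animal 71 these were 14 and 30, with medians of 1.2 and 2.08. Over all genes 17.5% were higher and 16.0% lower in Jejunum than in Liver, and 6.18% were higher in Peyer than in Jejunum. Higher than in Liver were 21.1% in Spleen and 19.4% in Peyer. Well above background on all Liver arrays were 22 of the 25 and 25 of the 34. The rest entered the test only through other tissues. The counts and medians of this list were not recomputed without them. DUT, which removes dUTP from the nucleotide pool, was higher in Peyer than in Jejunum by 2.13 ± 0.29 and differed between Jejunum and Liver by -0.15 ± 0.29. DNMT1, the maintenance DNA methyltransferase, and POLD1, the catalytic subunit of polymerase delta, were higher in Peyer by 1.68 and 1.54. ESPL1, the separase that parts sister chromatids, was higher by 1.68 in Peyer than in Jejunum and by 2.46 in Spleen than in Liver, and the kinesin KIF2C by 2.74 in the latter.

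Of 12 transcription factors and kinases of the G1 to S step, 3 were higher in Peyer than in Jejunum (4 without the Peyer array of animal 71, and 1 lower) and 5 in Spleen than in Liver. Over all genes 6.18% were higher in the first of these comparisons and 21.1% in the second. MYBL2, a factor that switches on late cell cycle genes, was higher by 1.64 ± 0.38 and 3.23 ± 0.38, and cyclin E1 (CCNE1) by 1.42 and 2.26. CDK2 was higher in Peyer by 1.06 and lower in Jejunum than in Liver by 1.09, a difference of -1.09 ± 0.22. FOXM1, the factor of mitotic genes, was higher in Spleen by 1.86.

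Of 17 tested cell cycle inhibitors, 1 was higher and 2 were lower in Peyer than in Jejunum, and 5 were higher and 3 lower in Spleen than in Liver. Over all genes 6.18% were higher and 7.21% lower in the first of these comparisons, and 21.1% and 18.2% in the second, so that the counts of inhibitors lay near the background. Without the Peyer array of animal 71, 2 were higher and 2 lower. CDKN2B, the p15 inhibitor of CDK4 and CDK6, differed by -1.75 ± 0.4 in Peyer minus Jejunum, the antiproliferative factor TOB1 by -1.16, and CDKN2C, the p18 inhibitor, by 1.04. In Spleen minus Liver the p21 gene CDKN1A differed by -2.15 ± 0.24, the stress gene GADD45G by -2.16 and TOB1 by -1.87. The medians of the inhibitors were -0.02 and 0.63.

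Markers of other cells moved with the same comparisons. In Peyer minus Jejunum 8 of 9 germinal centre B cell markers and 8 of 9 B cell markers were higher, ELL3 by 7.01 and CXCL13, the chemokine that draws B cells into follicles, by 5.61. The mean level of the germinal centre markers lay between -2.32 and -1.91 in Jejunum. In the same comparison 6 of 8 smooth muscle and 3 of 8 enterocyte markers were lower, and of 5 crypt markers none was higher and EPHB2 was lower (-1.2). Without the Peyer array of animal 71 the B cell and germinal centre counts were again 8 of 9, 5 smooth muscle and 6 enterocyte markers were lower, and 1 crypt marker was higher and 1 lower. In Spleen minus Liver 8 of 9 B cell and 8 of 9 T cell markers were higher, as were 3 of 5 crypt markers, with 1 lower, and in Jejunum minus Liver 7 of 9 T cell and 3 of 5 crypt markers were higher. Over all genes 6.18% were higher and 7.21% lower in Peyer minus Jejunum. The shares were 21.1% and 18.2% in Spleen minus Liver, and 17.5% and 16.0% in Jejunum minus Liver. The crypt markers averaged -1.01 ± 0.3 (SD, n = 6) in Jejunum, -1.52 ± 0.21 in Peyer, -2.4 ± 0.3 in Spleen and -3.78 ± 0.23 in Liver. The part of these markers in the differences of the members was not tested.

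The mitosis members varied between animals most in Liver, and the replication members most in Peyer, where 1 array stood apart. That array, of animal 71, averaged -0.21 over the replication members against 1.34 to 1.54 on the others. The Peyer SDs include it and were not recomputed without it. The median SD over the 6 animals was 1.04 for mitosis members in Liver, against 0.53 in Spleen, 0.38 in Jejunum and 0.7 in Peyer, and for replication members 0.54 in Liver and 0.4, 0.31 and 0.72 in the others. Over the mitosis members the mean Liver level was 0.06 in animal 69 and -0.21 in animal 70, and -1.51, -1.69, -1.86 and -0.99 in animals 68, 71, 73 and 75. Animals 69 and 70 had the 2 highest Liver levels in 23 of the 28 members, and these 2 arrays were on different slides. TPX2, for example, was 1.13 and 0.84 in the Liver of animals 69 and 70 and between -1.58 and -0.22 in the other 4. In Spleen the same animals were the highest 2 in 13 members, and in Jejunum in 1. The hepatocyte markers of the 6 Liver arrays lay within 8.23 to 8.59, and the T cell markers at -1.19 and -1.24 in animals 69 and 70 and between -2.7 and -1.55 in the others. Their part in the spread was not tested.

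For 4 members the sign of the difference between Peyer and Jejunum changed with the probe. For MKI67 all probes were near 0 (-0.03, 0.09 and 0.04), and for KIF11 neither was called (-0.52 and 0.35), so these signs show no direction. Of the 14 members with several tested probes, 12 had all probes within 1 of each other when Peyer was set against Jejunum, and 10 when Spleen was set against Liver. The probes differed in sign for CDC6, KIF11, MKI67 and RFC5 in the first and for CDC6 and KIF11 in the second. RFC3 is an example of probes that went together, with 2.01 and 1.96 in Peyer minus Jejunum and 2.09 and 1.97 in Spleen minus Liver.

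KIF11 is the motor that pushes the spindle poles apart. The probe used was highest in Liver, between -3.34 and -2.17, and lowest in Peyer, between -5.01 and -3.81. Those groups did not overlap, and the Peyer minus Liver difference was -1.24 ± 0.26 (SE; limma, adjusted p = 1.9e-04). The other probe, well above background on 1 of 6 Liver arrays, lay there between -7.44 and -4.27, and on the Spleen arrays between -3.91 and -2.59. Its Spleen minus Liver difference was 2.78 (limma, adjusted p = 4.6e-06), against -0.46 for the probe used, and its Peyer minus Liver difference was 2.48, so that the lower KIF11 in Peyer holds for 1 of 2 probes. On the authors' deposited values the probe used differed by -0.32 and was not called. For CDC6 the probe used gave 1.55 in Peyer minus Jejunum and 1.97 in Spleen minus Liver, and the other probe -0.5 and -0.4. On the median of its probes CDC6 reached 2-fold in neither (0.52 and 0.79).

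MKI67 encodes the Ki-67 protein, the usual stain for dividing cells. The probe used lay between 2.19 and 2.65 in Liver, 2.56 and 2.76 in Spleen, 2.41 and 3.23 in Jejunum and 2.59 and 3.05 in Peyer, and no comparison called it. The probe printed above had a Liver mean of -4.14 ± 0.71 (SD, n = 6) and a Spleen mean of -2.07 ± 0.67. Its Spleen minus Liver difference was 2.07 (limma, adjusted p = 2.8e-05), and its Peyer minus Jejunum difference 0.04. The remaining MKI67 probe gave 0.3 and 0.09 in these comparisons. RFC5 had 2 probes at 0.77 and 0.63 in Peyer minus Jejunum and 1 at -0.44, whose mean was highest in Jejunum, at -1.56 ± 0.18.

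**Figure D5:**
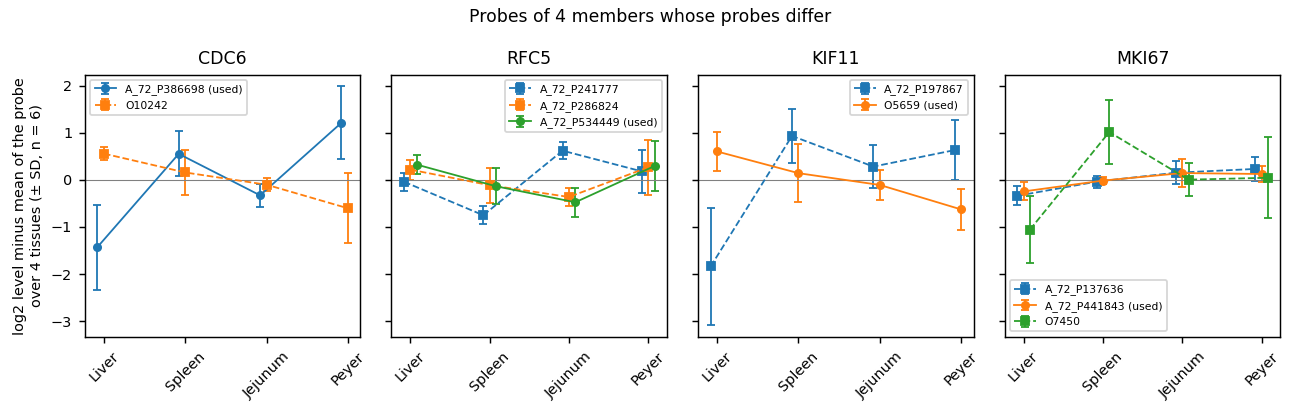
Mean log2 level of each probe of CDC6, RFC5, KIF11 and MKI67 in 4 tissues, minus the mean of that probe over the tissues (vertical axis), with SD bars over 6 animals and a solid line for the probe used. The CDC6 and KIF11 probes run in opposite directions between Liver and Peyer, and 1 of the 3 MKI67 probes has a low level in Liver.

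Of the members too dim to be tested, RRM1 was well above background on no Liver, 2 Spleen, 1 Jejunum and 2 Peyer arrays, and KIF20A, a kinesin of cytokinesis, on none, 4, 5 and 5. POLA1 was well above background on 1 Liver and 1 Peyer array, and its Peyer level was -0.42 in animal 68 and between -9.15 and -7.8 in the others. CENPA, the histone of the centromere, was named only through a gene number and stands outside the counts. It was higher in Spleen than in Liver by 2.5 ± 0.62 and in Jejunum than in Liver by 1.95, and differed by 0.36 ± 0.62 between Peyer and Jejunum, where it was -5.37 in the Peyer of animal 69.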

How the data were processed

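RNA of 24 samples (200 ng each, integrity number over 7.5, per the labels' protocols) was hybridised to 24 single-colour Agilent arrays. The deposited scanner files hold background-subtracted intensity values from Agilent Feature Extraction 10.10.1.1 (per the submitters' processing notes), not normalized between arrays. The authors' deposited table holds log2 values of 44600 probes, whose 24 columns have identical sorted values and a median of 8.24. The notes also name limma. The centring of that table is unknown, and it served as an alternative. For comparisons between slide sets it is no check, since most of the difference between the sets is absent from it.

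Each array's 75th percentile was subtracted from the log2 processed signal. A probe was kept if it was well above background throughout the 6 arrays of a tissue and had no outlier call (136 had one), which left 42650 of 60305. Differences came from limma 3.58.1 in R 4.3.3 (lmFit, eBayes) over all 24 arrays, with no term but tissue, residual degrees of freedom 20 and prior degrees of freedom 2.97. P-values were adjusted by Benjamini-Hochberg over the 42650 probes, separately in 6 comparisons. The fit was tested on simulated data. Counts over genes use 1 probe a gene (9965 genes). Shares of all genes called are from this fit alone, not from the alternatives. Names come from the files or, for genes outside the member list, also from accessions matched to RefSeq.

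The replicate number is the animal, so samples are paired across tissues. Deviations from the tissue means correlated at a mean r of 0.17 over 36 same-animal pairs (26 over 0.1) and -0.034 over 180 pairs of different animals.

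The members, lists and tests were chosen with earlier results of these data known. Any member could be named, with levels for the 4 largest absolute differences in Peyer minus Jejunum, Spleen minus Liver and Jejunum minus Liver; of other lists, up to 3 genes with the largest differences in each of the first 2. CENPA, the probes that differ and the levels of single animals were singled out after their values were seen. Alternatives were median and quantile scaling, normexp with an offset of 50, the authors' values, no filter, the median over a gene's probes, no fold minimum, the 12 arrays of a comparison alone, animal or slide as a block, mitosis members without TOP2A and MKI67, and each animal or the Peyer array of animal 71 left out. Slide as a random block, and the members above background on all Liver arrays alone, were added after the data were seen.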

Additional observations from a re-analysis of the deposited data

Results flagged for a closer look

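In 30 of 132 groups of 6 arrays, a tissue of a gene or of a list mean, the gap of 1 array to its nearest neighbour was over the critical value of Dixon's outlier test as a share of the whole range, where chance gives about 1 in 20. Of these, 26 were the Peyer array of animal 71, always the lowest of its group. Its mean level was -0.21 over the replication members and 0.04 over the mitosis members. Among replication members the array stood apart for MCM2 (-0.65, others 0.91 to 1.32), MCM3 (-1.59, others 0.04 to 0.33), MCM6 (0.99, others 2.39 to 2.99), PCNA (-0.7, others 1.06 to 1.86), RRM2 (1.21, others 2.97 to 3.47), GINS2 (-0.65, others 0.28 to 0.68), CDC6 (-0.06, others 1.48 to 1.94), CDC45 (1.38, others 2.43 to 2.9), RFC3 (1.22, others 3.34 to 3.75), RFC4 (-0.06, others 1.3 to 1.62), RFC5 (-2.42, others -1.37 to -1.02), PRIM1 (-1.19, others 0.17 to 0.4). Among mitosis members it did for TPX2 (1.35, others 2.91 to 3.28), CDK1 (1.3, others 2.61 to 2.86), CCNB1 (0.83, others 2.73 to 3.01), CCNB2 (-2.15, others -0.57 to -0.26), BUB1 (-1.4, others 0.53 to 0.73), AURKA (0.46, others 1.81 to 2.2), AURKB (1.85, others 2.99 to 3.33), PLK1 (-2.3, others -0.94 to -0.44), CDC20 (-1.37, others 0.24 to 0.95), NUSAP1 (0.79, others 2.29 to 2.58), BIRC5 (2.16, others 3.66 to 4.1), UBE2C (1.89, others 3.49 to 3.81). The B cell markers were low and the enterocyte markers high on the same array, as given above, and their part in these levels was not tested.

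The other 4 were single genes. The Jejunum level of CDC6 in animal 71 was -0.53, against -0.1 to 0.12 in the other 5. The Liver level of POLA1 in animal 75 was -3.96, against -7.19 to -6.45 in the other 5. The Peyer level of POLA1 in animal 68 was -0.42, against -9.15 to -7.8 in the other 5. The Peyer level of KIF11 in animal 69 was -5.01, against -4.13 to -3.81 in the other 5.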

How the results depend on the processing

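Of 204 recomputed main results (counts of called members, and replication against mitosis differences), 188 stayed within a tolerance, for counts a ratio of 1.5 to the reported one and for differences 1 SD over the 6 animals. The tolerance is wide: it takes in 11 members called between Jejunum and Liver without animal 73, where 16 were reported, and a difference between the sets there of -0.38 with normexp, and changes of sign of differences near 0 (Peyer minus Liver, -0.12 to 0.13 on the authors' values). Of 2772 recomputed differences of single members, 2615 kept their call, 67 lost it, 85 gained one and 5 reversed. Between Peyer and Spleen, 8 members were called with median scaling, 1 with normexp, 1 with the median over probes and 6 with no fold minimum; leaving out animals or arrays gave 0 to 8, the 8 without the Peyer array of animal 71, 7 without animal 71 and 2 without animal 70. On the authors' values the mitosis median there was -0.22 and the replication minus mitosis difference 0.21 (main value -0.06; -0.11 to 0.07 with an animal left out). Between Jejunum and Liver 9 members were called with normexp, 1 on the authors' values, 25 with no fold minimum and 11 to 18 with an animal left out, and the replication minus mitosis difference of -0.79 was -0.21 on the authors' values, -0.38 with normexp and -0.92 to -0.52 with an animal left out. Between Spleen and Jejunum 23 were called on the authors' values, 9 with no fold minimum and 2 to 7 with an animal left out. Reversed were KIF11 with the median over probes (Spleen minus Liver 1.16, Peyer minus Liver 0.62) and, on the authors' values, CCNB2 (-0.16) and MCM3 (-0.09) in Jejunum minus Liver and CDK1 (1.3) in Spleen minus Jejunum. In comparisons between slide sets, the results on the authors' values largely follow from those within slides, as given above. Other causes were not tested. Counts for Peyer minus Jejunum ran from 14 to 21, for Spleen minus Liver from 21 to 25 and for Peyer minus Liver from 23 to 27. With the animal as a replicate block 18 members were called in Peyer minus Jejunum and no call of 168 changed, and slide as a block changed none. Median scaling moved the median of all tested genes from -0.11 to 0.06 in Peyer minus Jejunum and from -0.11 to 0.16 in Peyer minus Spleen. The search of promoters for motifs was not run. The 5 mitosis members that were not well above background on every Liver array (TTK on 2 of 6, PLK1 on 4, BUB1, CCNB2 and CDC20 on 5) have the least certain levels there, and no tested replication member does. Without them, an alternative chosen after seeing the data, 11 of 23 members were called in Jejunum minus Liver, 19 in Spleen minus Liver and 20 in Peyer minus Liver, and the replication minus mitosis differences were -0.47, -0.25 and 0.12.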
